A study of Mus musculus with 10 samples.

Results

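The 9 genes described here encode the proteins that detect RNA or DNA in the wrong place or form inside a cell, the adaptor that several of them share, and the enzyme that edits the cell's own double-stranded RNA. They were Ddx58, Ifih1, Dhx58, Mavs, Tlr3, Eif2ak2, Zbp1, Cgas and Adar, chosen by symbol from the 55401 genes of the count table. RNA-seq was performed on whole livers of female fetuses at E18.5, 5 from Mir483Pat-KO and 5 from WT littermates. Mir483Pat-KO fetuses inherited a constitutive deletion of Mir483 from their father. Mir483 is a microRNA gene within an intron of Igf2, expressed from the paternal allele, and its loss was not restricted to liver or to any cell type. The deletion was made with Cre recombinase in C57BL/6N-derived embryonic stem cells, and the colony was kept on C57BL/6J. Which cell clone each fetus descended from is not given in the sources used here. Mir483 itself had 11, 10, 22, 21 and 12 counts in WT replicates 1 to 5 and 0 counts in every Mir483Pat-KO library, which matches the labels.

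Total counts ranged from 10831350 to 14765880 per library. Levels are given in CPM, a gene's counts relative to the total of its library, scaled between libraries by the trimmed mean of M values (TMM). Of the 14098 genes with enough counts to test, 731 differed between genotypes at an adjusted p under 0.05 by edgeR's quasi-likelihood F-test with Benjamini-Hochberg adjustment. A gene that met this threshold is said below to have passed, and a fold change beyond 1.5 is named separately. By the identification number in its label, each fetus belonged to a lower range (4 WT and 2 Mir483Pat-KO) or an upper range (1 WT and 3 Mir483Pat-KO). What the ranges stand for is not given in the sources used here.

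Cells sense foreign nucleic acid mainly by its form and location. Ddx58 (RIG-I) and Ifih1 (MDA5) bind double-stranded RNA in the cytosol and pass the signal to MAVS on the mitochondrial surface, which leads to transcription of interferon genes. Interferon then acts through its receptor and a transcription factor complex that includes STAT2 and IRF9, which raises many genes, among them most of the sensors themselves. ADAR1, the product of Adar, converts adenosine to inosine in double-stranded RNA, so that the cell's own transcripts are not read as foreign by MDA5, PKR or ZBP1. Loss of Adar in mice is lethal before birth, with failure of the fetal liver and its blood formation, and loss of Ifih1 or Mavs delays this death.

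Interferon-induced transcription factors bind a short repeat, the interferon-stimulated response element. Its core was searched as GAAANNGAA, where N is any base, and on the opposite strand as TTCNNTTTC, in RefSeq promoter windows of GRCm38.p6 that run from 250 bases before to 50 bases after a gene's start. Windows were at hand for 7 of the 9 genes. The sites below are shown because every gene with a window that passed the test of genotype held one, and no other did. Each line is 30 bases of the gene's own strand, 5′ to 3′, with the match in capitals.
Ddx58, chr4:40239803-40239832, match 4 bases after the start: ctgaggcagtTTCGATTTCctatggccagc
Ifih1, chr2:62646348-62646377, match 112 bases before the start: agaattcgcgTTCCCTTTCctgtttctcac
Ifih1, chr2:62646206-62646235, match 33 bases after the start: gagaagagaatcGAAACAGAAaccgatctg
Eif2ak2, chr17:78882535-78882564, match 19 bases after the start: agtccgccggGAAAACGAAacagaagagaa
Adar, chr3:89730738-89730767, match 34 bases after the start: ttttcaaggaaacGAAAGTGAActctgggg

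Distances are to the left end of the match, and the gene's first transcribed base counts as 1. Eif2ak2 held a further match that overlaps the printed one, and Adar a further match 249 bases before the same start. Adar had 3 windows, and both its matches lay in the window that starts 15696 bases downstream of the first, inside the gene. Mavs, Tlr3 and Cgas held no match in these windows. So 4 of 7 genes held the core, and these 4 were the genes with a window that passed the test of genotype below. The core was present in 9.76% of all 27025 genes with a window. It was present in 15.1% of the 284 genes with a window among those that passed as lower in Mir483Pat-KO. In the lists of related genes given further on, 7 of the 11 genes with a window that passed as lower held it (63.6%). Those lists, and the genes described here, were chosen with earlier results of these data known. They also include genes already known to be raised by interferon. A high share of the core among them could follow from that choice, so these shares are a description and not a test. The interferon gamma activated site, searched as TTCNNNGAA, was in a window of Eif2ak2 and of Adar and in 9.55% of all genes. Such matches describe the letters and not the binding of any factor. No window was used for Dhx58 or Zbp1.

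All 9 genes had enough counts to be tested, and all 9 had a lower mean level in Mir483Pat-KO than in WT. Of these, 6 passed as lower (Ddx58, Ifih1, Dhx58, Eif2ak2, Zbp1 and Adar), against 2.76% of all genes tested. None passed as higher by edgeR, against 2.43% of all genes. None was higher at an unadjusted p under 0.05 by edgeR, DESeq2 or limma-voom. The fold change exceeded 1.5 for 3 of the 6 (Dhx58, Zbp1 and Adar), against 0.872% of all genes. For the same 6 genes that passed, the highest of the 5 Mir483Pat-KO libraries was under the lowest of the 5 WT libraries, against 3.26% of all genes. The median log2 fold change of the 9 genes was -0.48, and that of all genes was 0.0042. Because whole livers were sequenced, fewer cells of a type and less RNA per cell cannot be told apart.

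**Figure D1:**
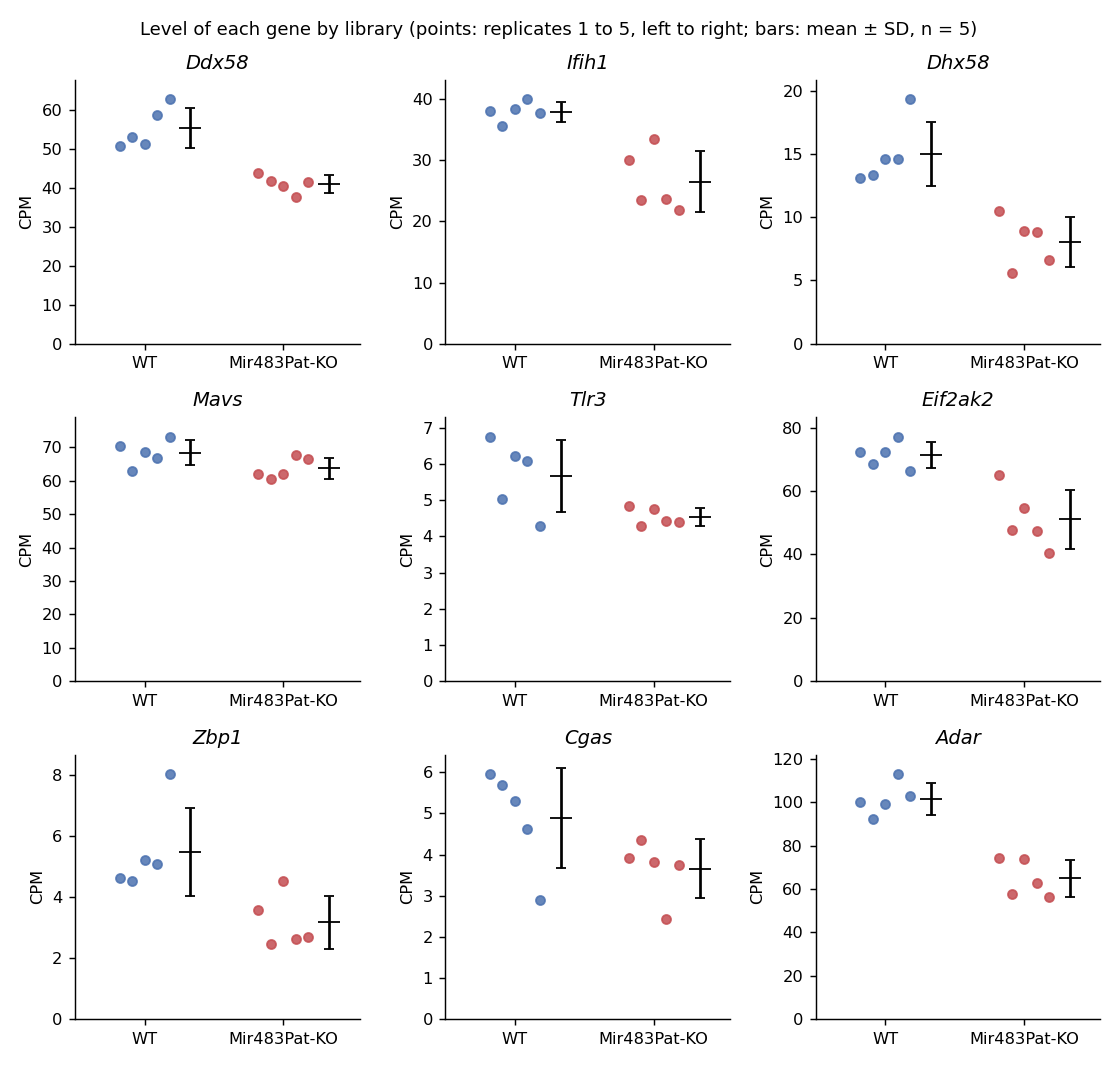
Level in CPM (y axis, from 0) of each of the 9 genes in the 5 WT and 5 Mir483Pat-KO libraries, with points for replicates 1 to 5 from left to right and bars for the mean and SD. The groups do not overlap for Ddx58, Ifih1, Dhx58, Eif2ak2, Zbp1 and Adar, by the smallest margin for Zbp1, and they overlap for Mavs, Tlr3 and Cgas.

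The RNA helicases come first. Ddx58 (chr4:40203773-40239828 of GRCm38, minus strand) encodes RIG-I, which recognises short double-stranded RNA with a triphosphate end. Its level was 51.0, 53.04, 51.4, 58.9 and 62.9 CPM in WT replicates 1 to 5. In Mir483Pat-KO replicates 1 to 5 it was 44.0, 41.9, 40.7, 37.6 and 41.5 CPM. The knockout libraries lay close together, and the highest of them was below the lowest WT library. The mean fell from 55.4 ± 5.22 to 41.1 ± 2.33 CPM (SD, n = 5 per group), which was 74.2% of WT. The log2 fold change was -0.43 with a standard error of 0.075 and an adjusted p of 0.00540 by edgeR's quasi-likelihood test.

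Ifih1 (chr2:62595798-62646255, minus strand) encodes MDA5, the sensor of long double-stranded RNA and the one most directly kept quiet by ADAR1. WT replicates 1 to 5 had 38.0, 35.5, 38.4, 40.0 and 37.7 CPM. Mir483Pat-KO replicates 1 to 5 had 29.98, 23.5, 33.4, 23.6 and 21.9 CPM. WT libraries were tightly grouped, whereas the knockout libraries spread over 3 that were low and 2, replicates 1 and 3, that lay nearer to WT. The mean fell from 37.9 ± 1.598 to 26.5 ± 4.96 CPM (SD, n = 5). The log2 fold change was -0.52 (SE 0.105, adjusted p = 0.0113 by edgeR).

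Dhx58 (chr11:100694884-100704271, minus strand) encodes LGP2, a helicase without the signalling domains of RIG-I and MDA5 that modulates both. It had the largest fold change of the 9 genes. WT replicates 1 to 5 had 13.1, 13.3, 14.6, 14.6 and 19.3 CPM. Mir483Pat-KO replicates 1 to 5 had 10.5, 5.55, 8.89, 8.84 and 6.58 CPM. WT replicate 5 stood above the other WT libraries, and the groups were apart without it. The level in Mir483Pat-KO was 53.9% of WT, with a log2 fold change of -0.90 (SE 0.156, adjusted p = 0.00518 by edgeR). Without WT replicate 5 the log2 fold change was -0.79 and still passed.

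Mavs (chr2:131234063-131248025, plus strand) encodes the adaptor through which RIG-I and MDA5 signal, and it is not itself a sensor. WT replicates 1 to 5 had 70.5, 63.01, 68.5, 66.8 and 73.1 CPM, against 61.9, 60.6, 61.97, 67.7 and 66.4 CPM for Mir483Pat-KO replicates 1 to 5. The groups overlapped. The log2 fold change was -0.10, with a 95% interval from -0.24 to 0.034, and it did not pass (adjusted p = 0.371 by edgeR). The interval leaves out a fall as large as the estimate for Ddx58, the smallest among the genes that passed.

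**Figure D2:**
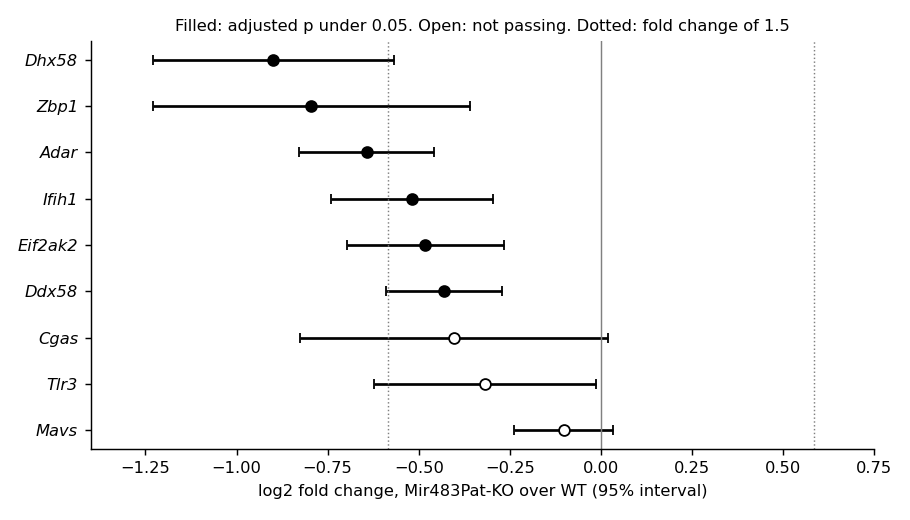
Log2 fold change of Mir483Pat-KO over WT (x axis) with its 95% interval for each of the 9 genes (y axis), filled where the adjusted p was under 0.05; dotted lines mark a fold change of 1.5 in either direction. Dhx58 (-0.90), Zbp1 (-0.79) and Adar (-0.64) lie beyond the line, and the intervals of Mavs and Cgas include 0.

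Mavs, the adaptor of Ddx58 and Ifih1, also served as a reference within each library for the other 8 genes, as the log2 ratio of a gene's counts to those of Mavs, which needs no scaling between libraries. By an exact two-sided permutation test over all arrangements of 5 against 5 libraries, adjusted over 8 genes, the ratio was lower in Mir483Pat-KO for 6. For Dhx58 the mean ratio went from -2.20 ± 0.18 to -3.01 ± 0.37 (SD, n = 5), a difference of -0.81 (permutation p = 0.00794, the smallest possible, adjusted 0.0212). Ddx58 and Adar reached the same p, with differences of -0.32 and -0.55. The ratios of Ifih1, Zbp1 and Eif2ak2 differed by -0.43, -0.69 and -0.40, at adjusted permutation p of 0.0317, 0.0381 and 0.0423. For Adar the log2 ratio went from 0.57 ± 0.11 in WT to 0.021 ± 0.22 in the knockout. The ratios of Tlr3 and Cgas did not pass, with differences of -0.20 and -0.30 and adjusted permutation p of 0.190 and 0.317. Without WT replicate 4 no ratio passed, with adjusted permutation p of at least 0.0635, while the differences were close to those above, at -0.81 for Dhx58, -0.50 for Adar and -0.29 for Ddx58.

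Eif2ak2 (chr17:78852564-78882573, minus strand) encodes PKR, the kinase that stops translation by phosphorylating eIF2α when it binds double-stranded RNA. Its level in WT replicates 1 to 5 was 72.3, 68.5, 72.2, 77.1 and 66.3 CPM. Mir483Pat-KO replicates 1 to 5 had 65.2, 47.6, 54.8, 47.4 and 40.3 CPM. Mir483Pat-KO replicate 1 lay just under the lowest WT library, and the other knockout libraries were well below. The mean fell from 71.3 ± 4.12 to 51.1 ± 9.40 CPM (SD, n = 5), with a log2 fold change of -0.48 (SE 0.102, adjusted p = 0.0144 by edgeR).

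Zbp1 (chr2:173206612-173218923, minus strand) encodes a sensor of left-handed Z-form nucleic acid that can start necroptosis through RIPK3, and which ADAR1 restrains. It was sparsely counted, with 29 to 114 counts per library. WT replicates 1 to 5 had 4.62, 4.52, 5.22, 5.08 and 8.03 CPM, and Mir483Pat-KO replicates 1 to 5 had 3.59, 2.46, 4.52, 2.62 and 2.70 CPM. The groups were apart only by the margin between Mir483Pat-KO replicate 3 and WT replicate 2, both at 4.52 CPM when rounded. The log2 fold change was -0.79 (SE 0.206, adjusted p = 0.0359 by edgeR). It did not pass when any of 6 single libraries was left out, namely WT replicates 3, 4 or 5 or Mir483Pat-KO replicates 2, 4 or 5. Without WT replicate 5, the highest library, it was -0.61 with an adjusted p of 0.0948.

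The remaining pair of sensors read other compartments or ligands. Tlr3 (chr8:45395665-45411080, minus strand) encodes the receptor for double-stranded RNA in endosomes, which signals through TICAM1 rather than MAVS. In order of replicate, WT libraries had 6.75, 5.03, 6.22, 6.08 and 4.30 CPM, and the knockout replicates had 4.84, 4.28, 4.75, 4.42 and 4.41 CPM. WT replicate 5 lay inside the knockout range. The log2 fold change was -0.32, with a 95% interval from -0.62 to -0.013, and an adjusted p of 0.206 by edgeR. With offsets for GC content and length it was -0.48 and passed, at an adjusted p of 0.0494.

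Cgas (chr9:78430526-78443237, minus strand) encodes the cytosolic DNA sensor that makes the messenger cGAMP. For it, WT replicates 1 to 5 had 5.95, 5.70, 5.29, 4.62 and 2.89 CPM, and the knockout replicates had 3.90, 4.36, 3.83, 2.44 and 3.75 CPM. WT replicate 5 was lower than 4 of the 5 knockout libraries. The log2 fold change was -0.40, with a 95% interval from -0.83 to 0.019 and an adjusted p of 0.247 by edgeR. The estimate was close in size to that of Ddx58, but its standard error was 0.200, with 27 to 74 counts per library. With the identification number range as covariate, Cgas was at -0.18 (adjusted p = 0.590 by edgeR) and Ddx58 at -0.44.

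Adar (chr3:89715022-89753446, plus strand) had the smallest p of the 9, rank 13 among all 14098 genes. Its level in WT replicates 1 to 5 was 100.3, 92.2, 99.4, 113.0 and 102.8 CPM. Mir483Pat-KO replicates 1 to 5 had 74.3, 57.7, 73.8, 62.9 and 56.5 CPM. The highest knockout library was well below the lowest WT library. The mean fell from 101.6 ± 7.49 to 65.1 ± 8.58 CPM (SD, n = 5), to 64.1% of WT, with a log2 fold change of -0.64 (SE 0.087, adjusted p = 0.00152 by edgeR). Adar makes a long cytoplasmic form of ADAR1 from an interferon-inducible start and a shorter nuclear form from constitutive starts. Counts per gene sum all transcripts, so the forms cannot be told apart here. Of its exonic bases, 16.8% overlap Chrnb2 on the opposite strand. Chrnb2 itself had at most 21 counts in any library, with 90 over the WT and 51 over the Mir483Pat-KO libraries. The strand setting of the counts is not given, and the effect of the overlap on the counts of Adar was not tested.

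The knockout libraries differed among themselves in the same way for several genes. Over the 6 genes that passed, the median log2 difference from the WT mean was -0.39 in Mir483Pat-KO replicate 1 and -0.41 in replicate 3. It was -0.75, -0.68 and -0.83 in replicates 2, 4 and 5. In WT libraries the same median ran from -0.11 to 0.10. Replicate 1 was the highest knockout library for 4 of the 6 genes and replicate 3 for the other 2. Replicate 5 was the lowest for 3 of them. Replicate 1 belongs to the lower identification number range and replicate 3 to the upper one. These medians describe genes picked by their difference and are not a test.

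Within the lower range, with 4 WT and 2 Mir483Pat-KO libraries, the groups were apart for all 9 genes, against 12.1% of all genes tested. For the 6 that passed this follows from their separation over all libraries. Mavs had 63.01 to 70.5 CPM in its WT and 60.6 to 61.9 CPM in its Mir483Pat-KO libraries. Adar had 92.2 to 113.0 CPM in its WT and 57.7 to 74.3 CPM in its Mir483Pat-KO libraries. Dhx58 had 13.1 to 14.6 CPM and 5.55 to 10.5 CPM. A fit on these 6 libraries gave lower estimates for all 9 genes and an unadjusted p under 0.05 for 6, against 7.24% of all genes lower at that threshold in the same fit. None passed the adjusted threshold by edgeR, with Adar at -0.62 and an adjusted p of 0.0741. In that fit 23 genes of all those tested passed. The upper range held a single WT library, in which Adar had 102.8 CPM against 56.5 to 73.8 CPM in the 3 Mir483Pat-KO libraries. With the range as a covariate the same number of genes, 6 of 9, passed as lower.

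The genes also differed widely in level. Per kilobase of exons, Mavs was highest in WT at 20.4 ± 1.14 CPM per kilobase (SD, n = 5), followed by Eif2ak2 at 13.9 ± 0.805 and Adar at 12.5 ± 0.923. Eif2ak2 and Adar overlapped between libraries, and their order turned when the longest transcript was taken as length. Ddx58 followed at 7.86 ± 0.740, with no overlap with the genes around it by this length, but at 14.3 ± 1.35 by the longest transcript, where its spread reached that of Eif2ak2 at 16.5 ± 0.954. Ifih1 at 4.64 ± 0.196 and Dhx58 at 4.57 ± 0.772 did not differ beyond their spread. Zbp1 at 1.56 ± 0.411, Cgas at 1.19 ± 0.297 and Tlr3 at 1.09 ± 0.190 formed the lowest group, with overlapping libraries. The order of the mean levels was the same in Mir483Pat-KO, where Mavs stood at 19.0 ± 0.932 and Adar at 8.01 ± 1.06 CPM per kilobase.

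**Figure D3:**
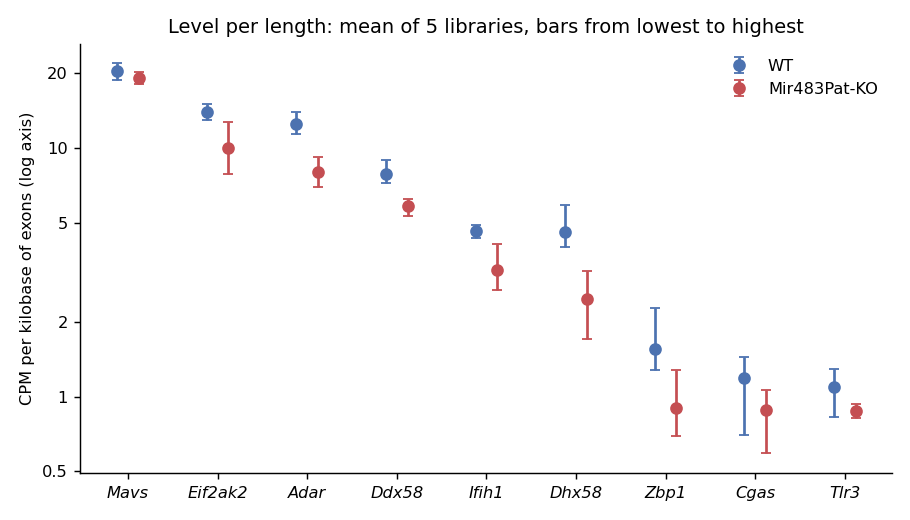
Level per length in CPM per kilobase of exons (log axis) of the 9 genes, as the mean of 5 libraries with bars from the lowest to the highest library, for WT and Mir483Pat-KO. The genes fall from Mavs (20.4 in WT) to Tlr3 (1.09 in WT) in the same order in both genotypes.

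For each gene that passed, the 3 genes with the most similar profile were found by the root mean square (RMS) difference of centred log2 CPM over the 10 libraries, among 12541 genes. For Adar these were Parp12, Parp14 and Parp10, at RMS differences of 0.066, 0.075 and 0.097, where the median over all genes was 0.393. They encode ADP-ribosyltransferases, and their log2 fold changes were -0.67, -0.55 and -0.63. Eif2ak2 was nearest to Parp14, to Dtx3l, which encodes a ubiquitin ligase, and to Gm6548. Irf9 and Slfn5 were among the genes nearest to Ifih1, at 0.076 and 0.077. Irf9 encodes a subunit of the interferon-activated transcription complex.

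Dhx58 was nearest to Ifit3, which encodes an interferon-induced protein that binds viral RNA complexes, and to the interferon-inducible GTPases Irgm1 and Gbp3. Zbp1 was nearest to Bst2 and Ifitm3, both of which restrict viruses at membranes, and to Ablim3. Ddx58 was nearest to Ece1, Epha1 and Zfp276, which are not classed with the interferon genes. All these neighbours passed as lower. Because profiles hold the difference between genotypes, the search was repeated with each group centred on its own mean. Of the 3 neighbours, 1 was then kept for each of Ifih1, Dhx58, Eif2ak2, Zbp1 and Adar, and 0 for Ddx58.

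The other genes of sensing were taken from lists. Of 38 other sensors, cofactors and adaptors, 8 passed as lower and 0 as higher, against 2.76% and 2.43% of all genes, with a median log2 fold change of -0.21. In the lower identification number range alone 3 passed. By DESeq2 9 were lower and by limma-voom 8, and neither called any higher. Oasl1, an oligoadenylate synthetase-like protein, was at -1.39 (adjusted p = 0.00133 by edgeR), from 6.07 to 2.32 CPM. Oas1b and Oasl2, of the family whose active members make the second messenger that activates RNase L, were at -1.15 and -0.99. These genes have close paralogs, and how reads that match several were counted is not given in the sources used here. Trim25, a ubiquitin ligase that supports RIG-I, was at -0.38 (adjusted p = 0.00416), from 142.0 to 109.4 CPM. The other 4 that passed were Oas3, Oas1a and Oas2, of the same family as Oas1b, at -1.30, -0.83 and -0.57, and Ddx60 at -0.46. These 4 are named here after their values were seen. Outside the Oas and Oasl genes only Trim25 and Ddx60 passed, Ddx60 at an adjusted p of 0.0490 by edgeR.

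Of 26 signalling genes downstream of the adaptors, only Irf7 passed in the main edgeR fit, at -1.05 (adjusted p = 0.00133), from 76.1 to 36.8 CPM. DESeq2 and limma-voom also called 1 gene of this list, where 2.76% of all genes passed as lower by edgeR. Among the other edgeR fits, 2 were lower with the range as covariate, and 1 was lower and 1 higher without a low-count filter. Irf7 is an interferon regulatory factor that is itself raised by interferon. Irf3, its constitutive relative, went from a mean of 43.9 to 38.7 CPM and did not pass (adjusted p = 0.167 by edgeR); it is named here after its value was seen. Traf2, Nfkb1 and Nfkbia, which carry or restrain NF-κB signals, were at -0.31, -0.18 and -0.23 and did not pass either.

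Among 23 genes that restrain sensing, 21 were tested and 4 passed as lower, against 2.76% of all genes. They were Nlrc5 at -1.13, Usp18 at -0.83, Isg15 at -1.37 and Trim30a at -0.44, with adjusted p from 0.00306 to 0.0406 by edgeR. Isg15, a ubiquitin-like modifier, fell from 100.3 to 38.9 CPM, and Usp18 removes it from its targets and dampens the interferon receptor. The median of this list was -0.025. Over the alternative fits 3 to 5 genes of the list were lower, and 1 was higher with the range as covariate.

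Genes that clear or mark the cell's own nucleic acid gave no call by edgeR or limma-voom among 19 tested, and 1 lower by DESeq2. At an unadjusted p under 0.05 there were 3, against 22.2% of all genes. Among the other edgeR fits, 1 was lower with robust fitting, other count filters or the range as covariate, and without WT replicate 3 or Mir483Pat-KO replicate 3. Samhd1, which depletes deoxynucleotides, had the smallest p, at -0.27 (adjusted p = 0.0511 by edgeR). Adarb1, the other catalytically active RNA-editing adenosine deaminase of this family, went from 10.8 to 9.05 CPM without passing (-0.24, adjusted p = 0.235 by edgeR). Dnase1l3 and Ythdf2 were at -0.20 each. Trex1, the exonuclease of cytosolic DNA, had 0 counts in every library. All of its exonic bases lie within Atrip on the same strand in the annotation, so that 0 says nothing about its level.

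Among the other eIF2α kinases and the partners of PKR, 20 were tested, 0 passed as lower and 1 as higher, against 2.76% and 2.43% of all genes. At an unadjusted p under 0.05 there were 3 by edgeR, against 22.2% of all genes, and DESeq2 and limma-voom also found 0 lower and 1 higher. Eif2s1, which encodes the α subunit of eIF2 that PKR phosphorylates, rose from 63.3 to 75.8 CPM, at 0.26 (adjusted p = 0.0222 by edgeR). No gene of this list passed with GC content and length offsets, in the lower range alone, or without WT replicate 3 or 4 or Mir483Pat-KO replicate 2 or 4. Eif2b2 was at -0.24 and did not pass (adjusted p = 0.123 by edgeR). Eif2ak1, the haem-regulated kinase of red cell precursors, was at 0.17 and did not pass (adjusted p = 0.146 by edgeR).

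Of 13 necroptosis and inflammatory partners of ZBP1, 0 passed by edgeR or limma-voom and 1 was lower by DESeq2, and 4 had an unadjusted p under 0.05 by edgeR, against 22.2% of all genes. With edgeR, 1 was lower without Mir483Pat-KO replicate 1 or with the range as covariate, and 1 was higher without a low-count filter. Mlkl, the protein that ruptures the membrane in necroptosis, was at -0.45 (adjusted p = 0.0682). Gsdmd and Nlrp3, of pyroptosis and the inflammasome, were at -0.27 and -0.40. Il1b was at 1.32 (adjusted p = 0.152), with 1 Mir483Pat-KO library far above the rest.

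**Figure D4:**
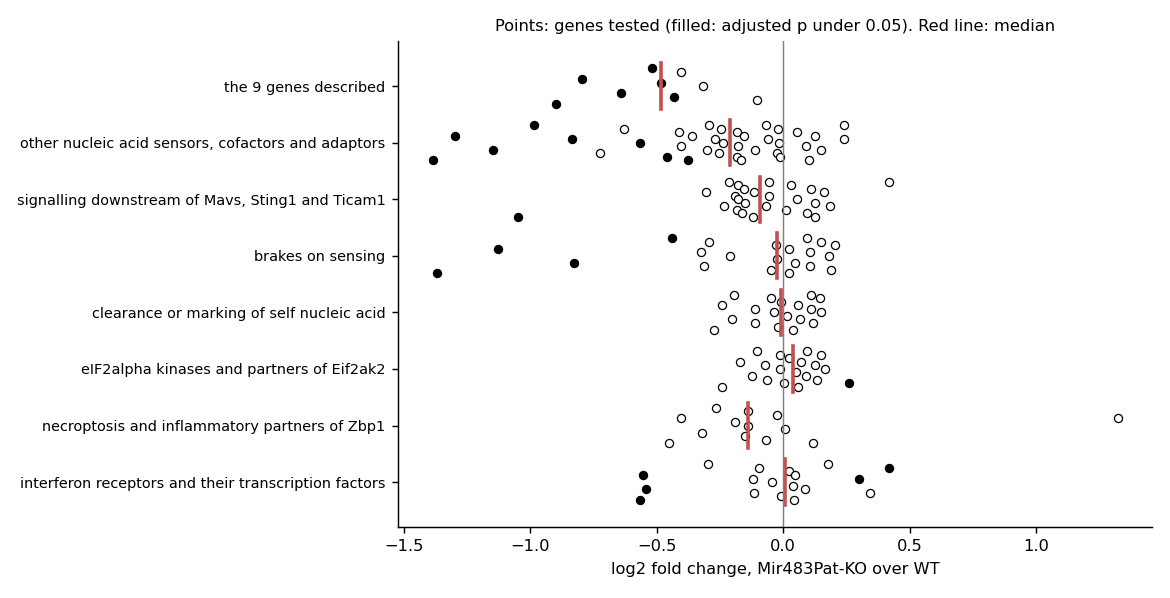
Log2 fold change of Mir483Pat-KO over WT (x axis) of each tested gene in the 9 genes described and in the lists of related genes (rows), filled where the adjusted p was under 0.05, with a red line at each median. The median lies at -0.48 for the 9 genes, at -0.21 for the other sensors and at -0.025 for the brakes on sensing, whose 4 filled points lie to the left.

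The interferons themselves were not detectable at this depth. Of 21 interferon genes, 19 had 0 counts in all 10 libraries, and the list had 4 counts in all, 3 of Ifng and 1 of Ifnk. A count of 0 allows at most 0.203 to 0.277 CPM, taken as 3 counts per library. Of 18 tested genes for interferon receptors and their transcription factors, 3 passed as lower and 2 as higher, against 2.76% and 2.43% of all genes. Stat2 and Irf9 were at -0.57 and -0.54, with adjusted p of 0.00307 and 0.0103 by edgeR. Jak2, a kinase of cytokine receptors, was at 0.30 (adjusted p = 0.0265). The other that was higher, named after its value was seen, was Socs3, an inhibitor of cytokine signalling, at 0.42 (adjusted p = 0.0379). The 2 higher calls became 0 when WT replicate 4 or 5 or the third knockout replicate was left out, and 1 without WT replicate 3 or Mir483Pat-KO replicate 2, 4 or 5. The lower calls were 3 or 4 in each of these fits. In the lower identification number range alone, no gene of this list passed in either direction by edgeR.

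Markers of the cell types of fetal liver were measured in the same libraries, and their counts are to be read against the 2.76% of all genes that passed as lower and 2.43% as higher. Hepatocyte markers dominated, with a summed level of 156780 to 176834 CPM over the WT libraries and 144718 to 168954 CPM over the knockout ones, and 2 of 6, Apoa1 and Cps1, passed as lower. That count was 3 by DESeq2 and limma-voom. It was 1 with GC and length offsets and without WT replicate 5 or Mir483Pat-KO replicate 3, 4 or 5, and 0 in the lower range alone. Erythroid markers summed to 15712 to 20319 CPM over the WT libraries and 18401 to 26315 CPM over the knockout ones, and 2 of 8, Hbb-bs among them, passed as higher. At an unadjusted p under 0.05 there were 7 of the 8 by edgeR, against 22.2% of all genes in either direction, and the median log2 fold change was 0.32. The higher calls were 4 by DESeq2, without a low-count filter, with the replicate number as a block and without Mir483Pat-KO replicate 1, 5 with GC and length offsets, and 0 in the lower range alone. Of 9 Kupffer cell and macrophage markers, Clec4f passed as lower, while the summed level overlapped, at 907 to 1079 CPM and 956 to 1200 CPM. Only 3 of the 9 had a negative log2 fold change, and the median of the list was 0.093. That list had no lower call with a robust fit, in the lower range alone, or without WT replicate 1, 4 or 5 or Mir483Pat-KO replicate 2, 4 or 5. Beside its lower call it had 1 higher call with the block and 2 without a low-count filter. Of 3 tested plasmacytoid dendritic cell markers, Bst2 passed as lower, and Bst2 is also induced by interferon in other cells. Siglech and Tcf4 of that list were at 0.31 and 0.0082 and did not pass. No marker passed for sinusoidal endothelial, neutrophil, B-lymphoid, NK and T, megakaryocyte, stellate or bile duct cells by edgeR or limma-voom, and DESeq2 called 1 stellate marker lower. Other edgeR fits called 1 to 3 stellate markers lower (without WT replicate 1, without Mir483Pat-KO replicate 1, with the block, and without a low-count filter). A neutrophil marker was higher without WT replicate 1 and without a low-count filter. By edgeR an unadjusted p under 0.05 was found for 22.2% of all genes. Among markers it was found for 4 of 6 hepatocyte, 3 of 9 Kupffer cell and 3 of 6 stellate ones. It was also found for 1 of 7 endothelial, 1 of 8 neutrophil and 1 of 3 plasmacytoid dendritic ones. The median log2 fold change was -0.21 for hepatocyte and -0.39 for stellate markers. No list had a marker at 0 in all libraries. The part of these differences in the levels of the 9 genes was not tested.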

How the data were processed

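RNA from whole livers of 10 female fetuses (5 per genotype) was made into stranded poly(A) libraries. The authors aligned read pairs to GRCm38 with STAR and deposited raw counts per Ensembl gene. The strand setting and the handling of multi-mapping reads are not given in the sources used here. Of 55401 identifiers, 55141 matched a symbol and a GENCODE M21 gene. The members and lists were chosen with earlier results of these data known.

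Here, counts were filtered with filterByExpr (14098 genes), scaled by TMM and fitted by genotype in edgeR 4.0.16 (R 4.3.3) with the quasi-likelihood F-test, with Benjamini-Hochberg adjustment across every tested gene. Standard errors were derived from the F statistic. Genotype came from the titles. Within groups, libraries differed by more than sampling noise (chi-square per degree of freedom of at least 4.86). P-values measure the spread between fetuses. The fit was tested on simulated data. Ratios to Mavs used counts plus 0.5. Alternatives were RLE scaling, DESeq2 1.42.0, limma-voom (limma 3.58.1), robust fitting, other count filters, a replicate block, the identification number range, GC and length offsets, and each library left out. Intervals are 95% and floors (3 counts) cover counting error only. Named were all 9 genes, Mir483, up to 3 nearest genes per passing gene (average log2 CPM of at least 1), up to 4 genes per list by smallest p, and markers that a result turns on. Some genes that meet this rule are not reported here.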

Additional observations from a re-analysis of the deposited data

Results flagged for a closer look

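In 4 of 74 gene and group combinations examined, for the 9 genes and the named list genes, 1 library stood so far from the other 4 of its group that Dixon's test singled it out, and chance alone gives about 1 in 20. In WT, replicate 5 had 19.3 CPM of Dhx58, where the next highest library had 14.6 CPM. The same library had 8.03 CPM of Zbp1, against 5.22 CPM in the next. Mir483Pat-KO replicate 3 had 7.20 CPM of Il1b, against 1.67 CPM in the next. Stat2 stood at 72.8 CPM in Mir483Pat-KO replicate 1 and at 59.7 CPM in the next.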

How the results depend on the processing

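All 9 genes stayed lower in Mir483Pat-KO under each of the 20 alternatives to the genotype fit, and no value reversed. Adar, Dhx58, Ddx58, Ifih1 and Eif2ak2 passed in 19 of these, all but the fit on the lower identification number range alone, and Zbp1 in 13. In the lower range alone, 23 genes passed by edgeR, and 0 of the 9 passed, with or without a fold change over 1.5; that fit has 6 libraries, and 6 of the 9 had an unadjusted p under 0.05. The count of all genes that passed, 731, was 1160 by DESeq2, 1258 without a low-count filter, 1189 with the range as covariate and 1338 with the replicate number as a block; the cause was not tested. Whether the replicate numbers pair the libraries cannot be settled from 5 pairs. Deviations of same-numbered libraries correlated from -0.050 to 0.26, with a mean of 0.087 against -0.022 for the others. Of the 5 WT libraries, 2 correlated best with their own number. With the block, 6 of the 9 passed as lower, as without it. With single libraries left out, 279 (without Mir483Pat-KO replicate 4) to 863 genes passed, 5 or 6 of the 9 passed as lower, 2 to 4 of them with a fold change over 1.5, and 0 (without WT replicate 4) to 7 ratios to Mavs passed. It was 403, 425, 396 and 417 genes without WT replicates 5 and 4 and Mir483Pat-KO replicates 2 and 3. The ratios to Mavs that passed were 3 without WT replicate 2 or 3. Zbp1, Cgas and Tlr3 had 27 to 114 counts per library, and the effect of depth on their calls was not tested. The interferon genes were at or near 0 counts.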
